A study of Mus musculus with 16 samples.

Results

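The genes of Wnt signal exchange were followed across 4 treatments of gingival fibroblasts: the Wnt ligands, the frizzled receptors and the co-receptors Lrp5, Lrp6, Ror1 and Ror2, the secretion factors Porcn and Wls, the secreted antagonists of the Sfrp and Dkk families with Wif1, and the feedback gene Axin2. They were picked by symbol alone, though with earlier results of these data known, and this gave 45 of the 56941 genes counted. Of these, 31 had at least 10 counts in at least 4 libraries: 11 of 19 ligands, 8 of 10 frizzled receptors, all 4 co-receptors, both secretion factors, 5 of 9 antagonists and Axin2. Under palmitate, 22 of the 30 members tested, or 73.3%, had less RNA, against 17.5% of all genes tested. Among them were ligands, receptors, antagonists and the Wnt carrier. Ror1 had more RNA, as did 19.8% of all genes.

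Primary murine gingival fibroblasts (mGF) were grown out of gum explants taken around the maxillary second molar of wild-type C57Bl6 mice aged 3 to 6 months, and were used at passages 2 to 8. For 24 h they received BSA, the albumin vehicle (control), 1 ng/mL mouse IL-1β, 200 µM palmitate bound to BSA, or palmitate + IL-1β at the same doses, with 4 libraries for each treatment. All cells shared the medium, DMEM with 20% fetal bovine serum, and the albumin carrier belongs to the control and to the palmitate complex alike. Palmitate is a saturated fatty acid used to model metabolic stress, and IL-1β is an inflammatory cytokine. The labels do not say whether the libraries came from separate animals or cultures, so the p-values measure the spread between libraries, which may be technical. Total counts ran from 21234789 to 92752515, with palmitate replicate 10 the deepest and the next library at 35329711.

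Wnt ligands are secreted glycoproteins that carry a lipid added by the acyltransferase Porcn and are escorted to the cell surface by the carrier Wls. At the receiving cell they bind frizzled receptors, together with Lrp5 or Lrp6 for the branch that stabilizes β-catenin, or with Ror1 or Ror2 for branches that act on cell shape and movement. Sfrp proteins and Wif1 bind the ligands, Dkk1, Dkk2 and Dkk4 act on Lrp5 and Lrp6, and Axin2, a scaffold of the β-catenin destruction complex, is itself switched on by β-catenin. In connective tissue these signals are known for their part in fibroblast growth, matrix production and bone turnover around the teeth.

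The cells expressed a Wnt system built around a few genes. The exon length of a gene joins the exons of all its annotated transcripts. Levels of different genes were compared as CPM, which is counts scaled to library size, divided by that length in kb. On that scale the ligand with the highest level in BSA was Wnt5a at 19.4, followed by Wnt9a at 3.33, Wnt4 at 0.666 and Wnt2b at 0.279. Wnt5a made up 78.9% ± 0.479 (SD, n = 4) of the summed level of the 19 ligands in BSA. Wnt5b at 0.275 and Wnt10b at 0.238 did not stand apart from Wnt2b, whose SD was 0.0693. Among the frizzled receptors the order per exon length was Fzd1 at 33.5, Fzd7 at 23.6 and Fzd2 at 16.6, and these 3 held 81.6% ± 0.466 of the frizzled sum. Lrp6 stood at 19.2 and Lrp5 at 8.20, and Ror2 at 6.14 was above Ror1 at 2.11. The highest level of any member was that of Dkk3, a divergent Dickkopf protein whose effect on Wnt signalling is less settled than that of Dkk1, at 59.9 CPM per kb. Wls was at 30.3 and Porcn at 0.543 on the same scale. Before division by length, Wls at 411.5 ± 25.6 CPM and Dkk3 at 409.8 ± 12.8 CPM did not stand apart. The lead of Dkk3 over Wls thus rests on the length used.

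**Figure D1:**
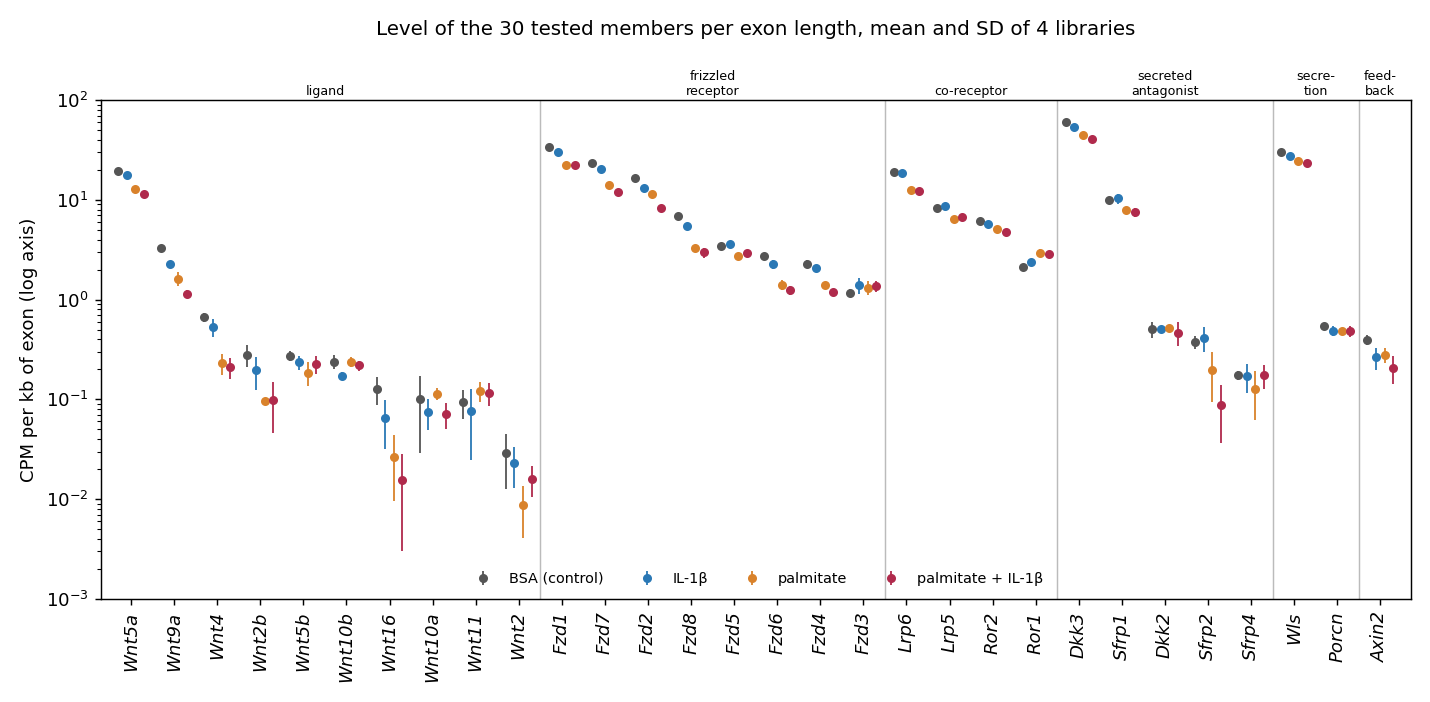
Level of each of the 30 tested members, in CPM per kb of exon on a log axis, grouped by role. Points are means and bars the SD of the 4 libraries of each treatment. Wnt5a stood at 19.4 among ligands and Dkk3 at 59.9 among antagonists in BSA.

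Several members were at or near 0 in every library. Dkk4 had 0 counts in all 16 libraries, which allows a level of up to 0.0323 to 0.141 CPM, depending on the library's depth (3 counts). Dkk1, Sfrp5, Wnt1, Wnt3, Wnt3a, Wnt7a, Wnt7b, Wnt8a, Wnt8b and Wnt9b had at most 3 counts in any library. The antagonist Wif1 reached 8 counts, Fzd10 reached 6 and Fzd9 reached 14. These 14 members were not tested in the main fit. With no filter on low counts, those with any count were tested, and none was called. For Fzd10 the ratio of summed counts to BSA, scaled to library size, was 7.01 with palmitate (95% exact interval 0.998 to 304). Differences between treatments could not be judged for these members at this depth. Floors and counting intervals cover counting error only, because PCR copies of a molecule were not marked.

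The first comparison asked what palmitate alone did against its albumin vehicle. Differences were called with the quasi-likelihood test of edgeR at a Benjamini-Hochberg adjusted p under 0.05 over all 16306 genes tested, with all 16 libraries in the fit. Palmitate lowered 22 of the 30 members tested, or 73.3%, against 17.5% of all genes. Ror1 alone rose, or 3.33% of members against 19.8% of all genes, and in either direction 37.3% of all genes were called. A second member, the sparsely counted Wnt6, entered the test and was called higher with both other filters on low counts. It also did so in 6 of the 16 fits that left out 1 library. The library was BSA replicate 3, IL-1β replicate 5, 6 or 8, palmitate replicate 9 or replicate 16 of the combination. In the other fits of that kind Wnt6 was not tested. Where a filter was used, Wnt6 passed it through libraries with palmitate, so those calls are no support for a rise. The 4 palmitate libraries lay wholly below the 4 BSA libraries in 18 members, against 16.5% of all genes, and wholly above them in 1, against 19.5%. The median change of the members was -0.53 on the log2 scale, and that of all genes was -0.003. By role, 7 of 10 ligands fell with a median of -0.83, 7 of 8 frizzled receptors with a median of -0.66, 3 of 4 co-receptors, 3 of 5 antagonists, 1 of 2 secretion factors, and Axin2. In bulk RNA, less RNA per cell and fewer cells of a type cannot be told apart.

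A filter on low counts decides which members enter these numbers. Wnt16 and Wnt2 reached the filter's level of 0.358 CPM as a group mean in BSA alone. The libraries at that level were 4 of BSA and 2 of IL-1β for Wnt16, and 2 of each for Wnt2. A pass of theirs thus came through the treatments without palmitate, in which they were higher. Their calls with palmitate are therefore no support for a fall. Sfrp2 and Wnt10a also missed that level in at least 1 treatment. The 26 members whose mean reached it in all 4 treatments gave 19 lower and 1 higher under palmitate against BSA. Of the same 26, the combination had 18 lower and 1 higher against BSA, and 17 lower and 1 higher against IL-1β. Palmitate set against IL-1β also gave 17 lower and 1 higher. The share of all genes under that requirement was not computed, so these counts have no comparator.

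**Figure D2:**
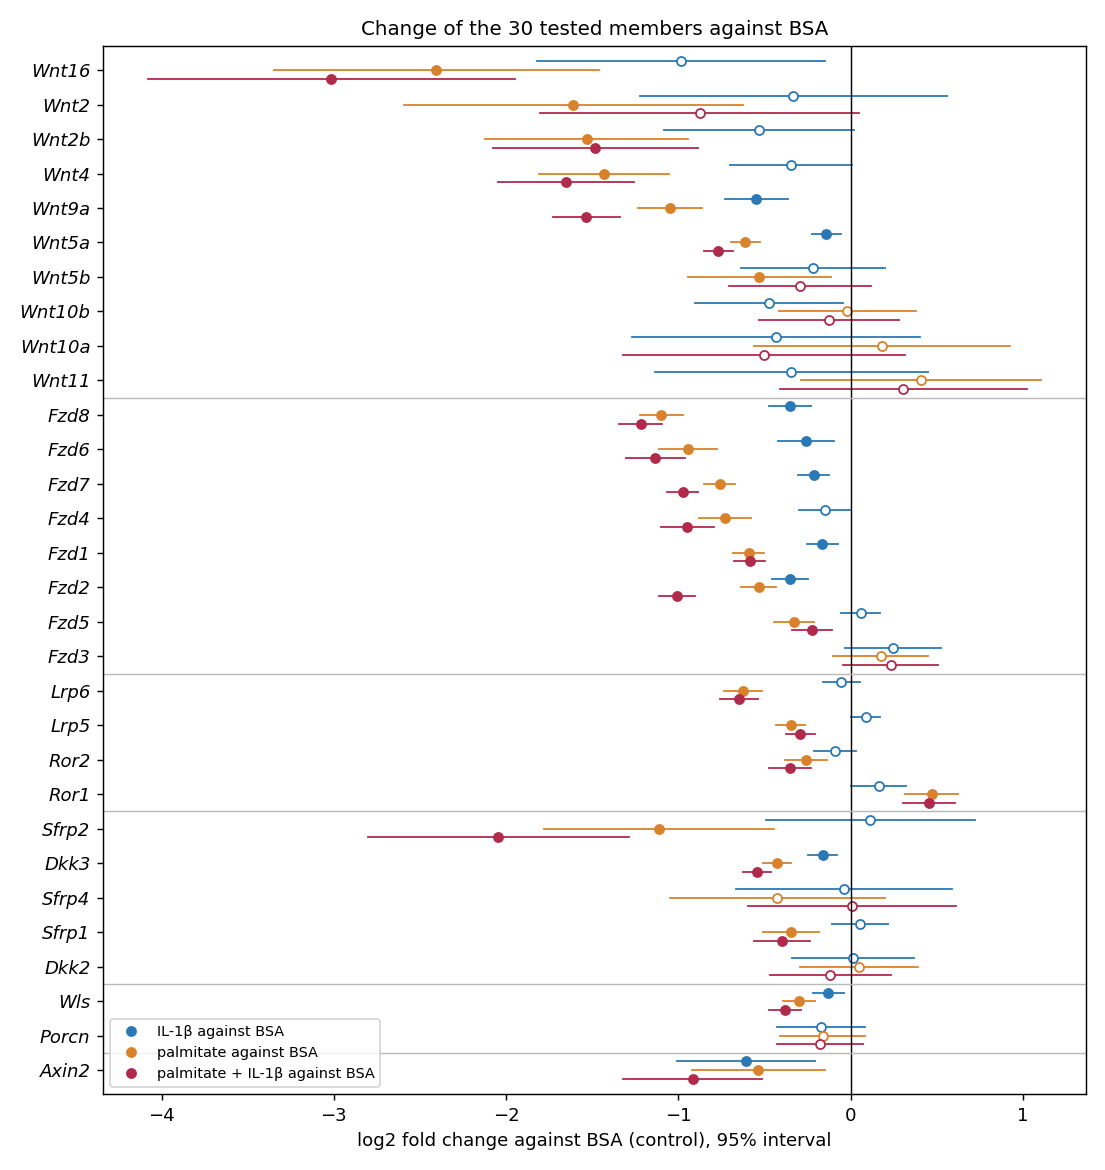
Log2 fold change of the 30 tested members against BSA, with 95% intervals, ordered by role from ligands at the top to Axin2 at the bottom. Filled points passed an adjusted p of 0.05. Under palmitate, 22 members lay below 0 and passed, and Ror1 at 0.47 lay above.

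Among ligands, the non-canonical ligand Wnt5a (chr14:28226495-28249405, plus strand, GRCm39) was at 149 to 164 CPM in BSA and 99.4 to 108 CPM in palmitate, with no overlap. Its log2 change was -0.61 (SE 0.04, edgeR adjusted p = 1.58e-13), a level of 0.655 of that in BSA. It was 137 to 149 CPM with IL-1β and 90.2 to 94.5 CPM with both agents, so that every library of the combination was below every palmitate library.

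Wnt9a (chr11:59197567-59224378, plus strand), a ligand known from joint and limb development, was at 12.7, 12.5, 14.0 and 12.9 CPM in the 4 BSA libraries. It was at 8.76, 8.40, 9.15 and 9.24 CPM with IL-1β, at 7.68, 5.95, 6.65 and 5.18 CPM with palmitate, and at 4.45, 4.00, 4.73 and 4.79 CPM with both agents. The 4 treatments formed 4 ranges that did not overlap, in the order BSA, IL-1β, palmitate and the combination. Palmitate lowered it by a log2 change of -1.05 (SE 0.09, edgeR adjusted p = 5.16e-11), IL-1β by -0.55 (adjusted p = 3.82e-05) and both agents by -1.53 (adjusted p = 1.26e-14). Its share of the summed ligand level per exon length was 13.5% in BSA, 10.6% with IL-1β, 10.4% with palmitate and 8.41% with both.

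Wnt4 (chr4:137004373-137027037, plus strand), a ligand needed for kidney and female reproductive tract development, was at 3.26, 3.65, 3.59 and 2.94 CPM in BSA and at 0.923, 1.53, 0.955 and 1.23 CPM in palmitate. With IL-1β it was at 3.15, 2.73, 1.90 and 2.86 CPM, and with both agents at 1.30, 0.728, 1.03 and 1.18 CPM. Both palmitate groups lay below both groups without palmitate, and the BSA and IL-1β ranges overlapped. The change was -1.43 on the log2 scale for palmitate (SE 0.18, edgeR adjusted p = 1.43e-07), -1.65 for both agents (adjusted p = 1.48e-08) and -0.35 for IL-1β (95% interval -0.70 to 0.01, adjusted p = 0.190).

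Wnt2b (chr3:104851289-104869237, minus strand), a ligand that can act through β-catenin, was at 1.92, 1.78, 1.11 and 1.33 CPM in BSA and at 0.534, 0.540, 0.514 and 0.534 CPM in palmitate. It was at 0.696, 0.937, 1.05 and 1.62 CPM with IL-1β and at 0.850, 0.695, 0.386 and 0.221 CPM with both agents. The palmitate range lay below that of BSA and that of IL-1β, and the combination overlapped IL-1β at its upper end. Palmitate lowered Wnt2b by -1.53 on the log2 scale (SE 0.29, edgeR adjusted p = 6.61e-05). Palmitate added to IL-1β lowered it by -0.95 (adjusted p = 0.0164), a call that was lost without IL-1β replicate 8 or without replicate 15 or 16 of the combination, with an adjusted p of up to 0.0960.

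Wnt16 (chr6:22288221-22298521, plus strand), known for a part in cortical bone, was at 0.503, 0.485, 0.420 and 0.804 CPM in BSA, from 17, 15, 11 and 23 counts. It had 3, 7, 1 and 5 counts in palmitate, or 0.146, 0.0772, 0.0367 and 0.205 CPM. With both agents it had 1, 1, 2 and 4 counts, or 0.0283, 0.0331, 0.0643 and 0.147 CPM. These levels were close to the floor of 3 counts, and the fitted log2 change of -2.40 for palmitate (95% interval -3.35 to -1.46, edgeR adjusted p = 8.91e-05) is correspondingly wide. Its pass of the filter came through treatments without palmitate, so this call is no support for a fall. With IL-1β it was at 0.409, 0.156, 0.158 and 0.414 CPM, below every BSA library, yet the change of -0.99 did not pass (adjusted p = 0.106).

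Wnt2, another ligand that can act through β-catenin, had 6, 13, 6 and 18 counts in BSA and 2, 11, 5 and 1 in palmitate. As CPM this was 0.178, 0.420, 0.229 and 0.629 in BSA and 0.0972, 0.121, 0.184 and 0.0411 in palmitate, so the ranges overlapped slightly. With IL-1β it was at 0.205, 0.391, 0.158 and 0.414 CPM, and with both agents at 0.142, 0.199, 0.161 and 0.295 CPM. The change with palmitate was -1.61 (SE 0.48, edgeR adjusted p = 0.00821), and the call was lost without BSA replicate 4, at an adjusted p of 0.0691. As with Wnt16, the call is no support for a fall.

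The remaining tested ligands had smaller changes or wide intervals. Wnt5b, close in sequence to Wnt5a, was 1.57 ± 0.177 CPM in BSA and 1.06 ± 0.286 CPM in palmitate (SD, n = 4), a log2 change of -0.53 (edgeR adjusted p = 0.0403). That call was lost without any filter on low counts and without BSA replicate 1, 3 or 4 or palmitate replicate 11 or 12, with an adjusted p of up to 0.124. In addition, 21.8% of its exons lie opposite Fbxl14. Wnt10b, a ligand tied to bone formation, had a log2 change of -0.02 with palmitate (95% interval -0.42 to 0.38). The interval was -0.56 to 0.93 for Wnt10a, a ligand tied to tooth and skin appendage development, and -0.29 to 1.10 for Wnt11, a ligand of the polarity branch. With all libraries, no comparison of treatments called Wnt10a, Wnt10b or Wnt11, whose mean levels ran from 0.301 to 1.21 CPM. Without IL-1β replicate 8, Wnt11 was called higher on adding palmitate to IL-1β, with a log2 change of 1.17 (adjusted p = 0.0220), and in palmitate than in IL-1β, with a log2 difference of 1.27 (adjusted p = 0.0133).

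Wnt6, a ligand of epithelia in many tissues, was counted more often with palmitate, at very low counts. It had 3, 3, 2 and 3 counts in BSA, 7, 5, 5 and 2 with IL-1β, 4, 32, 11 and 10 with palmitate and 9, 11, 4 and 8 with both agents. The ratio of the summed counts to BSA, scaled to library size, was 3.63 with palmitate (95% exact interval 1.89 to 7.69) and 2.7 with both agents (1.33 to 5.93). It did not pass the filter of the main test. It met the alternative filter of 10 counts in 4 libraries through treated libraries, 3 of palmitate and 1 of the combination. A call there came through the groups in which it was high and is no support for a rise. The same holds for its calls in fits that left out 1 library. With no filter its edgeR adjusted p was 0.00688 for palmitate and 0.0702 for both agents against BSA. The highest count, 32, was in palmitate replicate 10, the deepest library, where it came to 0.353 CPM, inside the range of the other palmitate libraries.

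**Figure D3:**
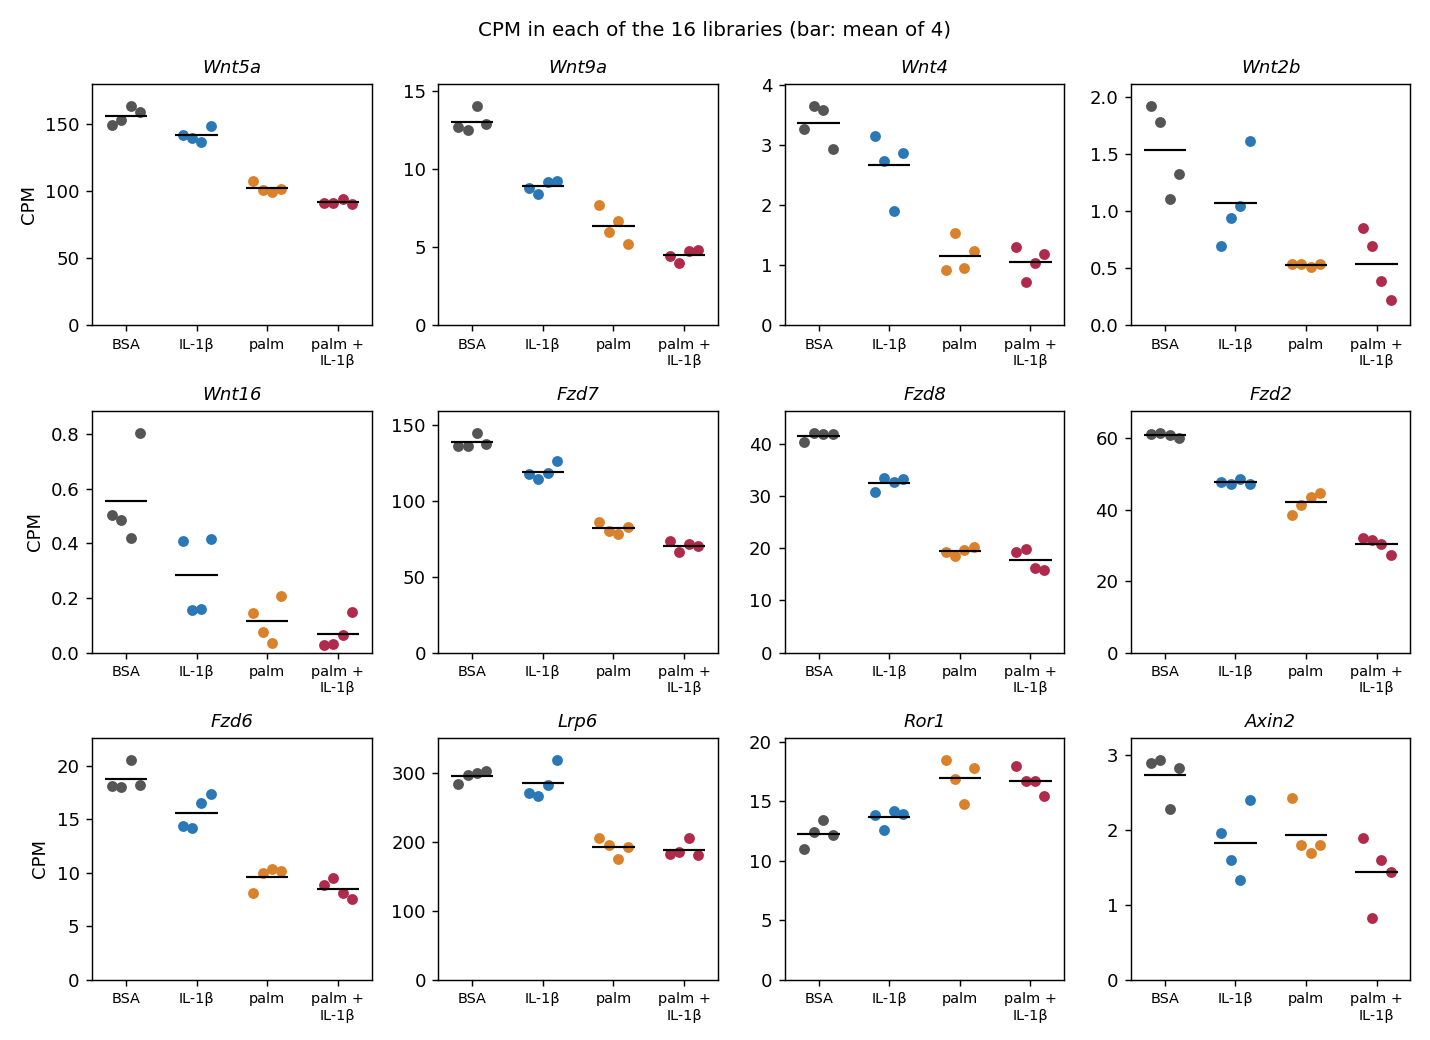
CPM in each of the 16 libraries for 12 members, with a bar at the mean of each treatment and axes that start at 0. Wnt5a, Wnt9a, Fzd2 and Fzd7 fell into 4 ranges that did not overlap. Ror1 ran the opposite way, from a mean of 12.2 CPM in BSA to 17.0 in palmitate.

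The frizzled receptors, which bind the ligands at the cell surface, fell as a group. Their summed level per exon length was 90.4 ± 2.03 CPM per kb in BSA, 78.1 ± 2.07 with IL-1β, 57.9 ± 1.23 with palmitate and 52.4 ± 2.45 with both agents (SD, n = 4). The ligand sum went from 24.6 ± 0.868 in BSA to 21.4 ± 0.866, 15.5 ± 0.655 and 13.7 ± 0.266 CPM per kb in the same order. For either sum no 2 treatments overlapped.

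Fzd8, whose changes against BSA with palmitate and with both agents were the largest among frizzled receptors, was at 40.5, 42.2, 41.9 and 41.8 CPM in BSA and at 19.3, 18.6, 19.8 and 20.3 CPM in palmitate. It was at 30.8, 33.5, 32.8 and 33.2 CPM with IL-1β and at 19.4, 19.8, 16.2 and 15.8 CPM with both agents. The palmitate libraries were all below the IL-1β libraries, which were all below BSA. Palmitate lowered Fzd8 to 0.466 of BSA (log2 -1.10, SE 0.06, edgeR adjusted p = 7.40e-16).

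Fzd6 (chr15:38869243-38901584, plus strand), a receptor of the planar polarity branch, was at 18.1, 18, 20.5 and 18.2 CPM in BSA and at 8.06, 9.99, 10.3 and 10.1 CPM in palmitate. With IL-1β it was at 14.4, 14.2, 16.5 and 17.3 CPM, and with both agents at 8.87, 9.50, 8.10 and 7.52 CPM. All treated libraries lay below all BSA libraries. The log2 change was -0.95 with palmitate (SE 0.08, edgeR adjusted p = 5.33e-11), -1.13 with both agents (adjusted p = 8.52e-13) and -0.26 with IL-1β (adjusted p = 0.0262). The last call was lost without BSA replicate 3, IL-1β replicate 5 or IL-1β replicate 6, at an adjusted p of up to 0.0982, and 13.3% of its exons lie opposite the transcripts Gm33123 and Gm26704.

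Fzd2 (chr11:102495222-102498884, plus strand), a receptor for Wnt5a among other ligands, was at 61.1, 61.5, 60.9 and 59.95 CPM in BSA and at 47.7, 47.2, 48.5 and 47.3 CPM with IL-1β. It was at 38.5, 41.3, 43.6 and 44.7 CPM with palmitate and at 32.0, 31.5, 30.4 and 27.3 CPM with both agents. As with Wnt9a, the 4 treatments did not overlap. The log2 change was -0.35 with IL-1β (edgeR adjusted p = 3.76e-06), -0.53 with palmitate (adjusted p = 2.15e-10) and -1.01 with both (adjusted p = 6.19e-17). On adding IL-1β to palmitate it fell by 0.47 on the log2 scale (adjusted p = 6.47e-08).

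The other frizzled receptors were abundant to moderate. Fzd7 fell from 139 ± 4.26 CPM in BSA to 82 ± 3.35 in palmitate (SD, n = 4), a log2 change of -0.76 (SE 0.04, edgeR adjusted p = 2.54e-15). Of the exons of Fzd7, 12.0% lie opposite the transcripts Gm26813 and Gm33774. Fzd1 fell from 141 ± 4.85 to 93.3 ± 3.39 CPM, a change of -0.59 (edgeR adjusted p = 1.60e-12). Fzd4, which also serves as the receptor of norrin, fell from 15.8 ± 1.30 to 9.56 ± 0.409 CPM, by 0.73 on the log2 scale. Fzd5 fell by 0.33 on that scale, and 18.1% of its exons lie opposite Gm38058. Fzd3, a receptor of the polarity branch, was the sole tested frizzled receptor that did not fall in any comparison. It was at 15.5 ± 1.28 CPM in BSA and 17.5 ± 2.73 in palmitate (log2 0.17, 95% interval -0.10 to 0.45, adjusted p = 0.332). Without a filter on low counts its change of 0.25 with IL-1β was called (adjusted p = 0.0413), and its change of 0.23 with both agents was called without that filter and in the fit of the compared libraries alone (adjusted p down to 0.0373).

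Of the co-receptors, Lrp6 (chr6:134423439-134544212, minus strand), which with its relative Lrp5 passes the signal to β-catenin, was at 283 to 302 CPM in BSA and 175 to 205 CPM in palmitate, without overlap. Its log2 change was -0.62 (SE 0.05, edgeR adjusted p = 6.06e-11). Lrp5 was at 78.2 to 82.3 CPM in BSA and 62.1 to 66.2 CPM in palmitate, a change of -0.35 (adjusted p = 3.17e-08). With IL-1β the changes were -0.05 for Lrp6 (95% interval -0.16 to 0.05) and 0.09 for Lrp5 (0.00 to 0.17), and neither passed.

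The receptor kinases Ror1 and Ror2, both receptors for Wnt5a, went apart. Ror1 (chr4:99952988-100301990, plus strand) was at 11.0 to 13.4 CPM in BSA, 12.6 to 14.2 with IL-1β, 14.7 to 18.5 with palmitate and 15.4 to 17.9 with both agents, and every library with palmitate lay above every library without it. Palmitate raised it by 0.47 on the log2 scale (SE 0.07, edgeR adjusted p = 5.81e-06), 1.39-fold, and the combination by 0.45 (adjusted p = 7.28e-06). Ror2 was at 26.8 to 30.5 CPM in BSA and 23.0 to 26.3 CPM in palmitate, a change of -0.26 (adjusted p = 0.000700). Per exon length the ratio of Ror2 to Ror1 was 2.93 ± 0.345 in BSA, 2.45 ± 0.147 with IL-1β, 1.77 ± 0.144 with palmitate and 1.67 ± 0.114 with both (SD, n = 4), so that Ror2 remained the higher of the pair in every treatment.

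Of the 5 antagonists tested, Dkk3, Sfrp1 and Sfrp2 fell with palmitate. Dkk3 was at 396 to 426 CPM in BSA and 297 to 316 CPM in palmitate (log2 -0.43, edgeR adjusted p = 2.49e-10). Sfrp1, which binds Wnt ligands outside the cell, was at 44.3 to 50.5 CPM in BSA and 35.9 to 40.6 CPM in palmitate (log2 -0.35, adjusted p = 0.0012). Both pairs of ranges were apart. Dkk2 and Sfrp4 were not called in any comparison, with log2 changes under palmitate of 0.05 (95% interval -0.30 to 0.39) and -0.43 (-1.05 to 0.20).

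Sfrp2, another Wnt-binding antagonist, was at 1.04, 0.905, 0.763 and 0.769 CPM in BSA and at 0.777, 0.287, 0.441 and 0.288 CPM in palmitate. It was at 1.27, 0.976, 0.918 and 0.621 CPM with IL-1β and at 0.368, 0.199, 0.0965 and 0.147 CPM with both agents, below every library without palmitate. In palmitate alone, replicate 9 lay within the BSA range and the other 3 below it. The change was -1.11 with palmitate (SE 0.33, edgeR adjusted p = 0.00739) and -2.05 with both (adjusted p = 2.98e-05). Without palmitate replicate 10 the first became -0.83 at an adjusted p of 0.0825. Part of its exons, 21.0%, lies opposite the transcript Gm26771.

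Of the secretion factors, the carrier fell. Wls was at 390 to 447 CPM in BSA and 328 to 346 CPM in palmitate, without overlap (log2 -0.30, edgeR adjusted p = 1.89e-06). Porcn, at 3.66 ± 0.212 CPM in BSA and 3.30 ± 0.189 CPM in palmitate (SD, n = 4), had a log2 change of -0.16 (95% interval -0.41 to 0.08) and did not pass in any comparison.

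Axin2 (chr11:108811169-108841609, plus strand), the common transcript readout of β-catenin, was at 2.90, 2.94, 2.29 and 2.83 CPM in BSA. It was at 1.96, 1.60, 1.33 and 2.40 CPM with IL-1β, at 2.43, 1.80, 1.69 and 1.81 CPM with palmitate, and at 1.90, 0.827, 1.61 and 1.44 CPM with both agents. The combination lay wholly below BSA, and with either agent alone a single treated library exceeded the lowest BSA library. The log2 change was -0.54 with palmitate (SE 0.19, edgeR adjusted p = 0.0250), -0.61 with IL-1β (SE 0.20, adjusted p = 0.0329) and -0.92 with both (adjusted p = 0.000266). The palmitate call was lost without BSA replicate 1, 2 or 4 or palmitate replicate 10, 11 or 12 (adjusted p up to 0.0924), and the IL-1β call without BSA replicate 1, 2 or 4 or IL-1β replicate 6 or 7 (up to 0.144). The call with both agents was not lost under any alternative.

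IL-1β alone lowered 10 of the 30 members, or 33.3%, against 4.97% of all genes lower and 15.1% called in either direction. Among all genes 10.1% were higher. All 10 called members were lower: Wnt5a, Wnt9a, Fzd1, Fzd2, Fzd6, Fzd7, Fzd8, Dkk3, Wls and Axin2. The count was 6 without IL-1β replicate 6. The IL-1β libraries lay wholly below BSA in 11 members, against 6.59% of all genes, and wholly above in 1, Lrp5, against 11.1%. The median change of the members was -0.17 on the log2 scale, against -0.005 for all genes. Apart from Axin2 and Wnt9a the called changes were small, from -0.13 for Wls (edgeR adjusted p = 0.0450) to -0.35 for Fzd8 (adjusted p = 4.80e-05). The call of Wls was lost in 12 of 22 alternatives, at an adjusted p of up to 0.181, and that of Wnt5a (-0.14, adjusted p = 0.0183) without BSA replicate 3 or 4 or IL-1β replicate 6 or 7, at up to 0.0720. The Wls call was lost with RLE scaling, in the fit of the compared libraries alone, and without BSA replicate 2 or 3, any of the 4 IL-1β libraries or any of the 4 palmitate libraries, which enter the shared estimate of the spread.

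The 10 members lowered by IL-1β were among the 22 lowered by palmitate. These comparisons share the BSA libraries, so the overlap is no independent result. Set directly against IL-1β, palmitate was lower in 19 of 30 members and higher in 1, Ror1, where 15.2% of all genes were lower, 16.5% higher and 31.6% called. The libraries of the agents were apart with palmitate below in 16 members, against 14.6% of all genes, and with palmitate above in 2, Ror1 and Wnt10b, against 16.5%. Without IL-1β replicate 8 the calls of Wnt2b (edgeR adjusted p = 0.0798) and Wnt16 were lost. Without palmitate replicate 10 those of Sfrp2 (adjusted p = 0.0539), Wnt16 and Ror2 were lost. Over all alternatives the adjusted p went up to 0.198 for Wnt16 and 0.119 for Ror2. The Wnt16 call was also lost without IL-1β replicate 5 or palmitate replicate 11, and that of Ror2 without IL-1β replicate 5 or 7 or palmitate replicate 11 or 12, and both were lost with no filter on low counts. Wnt2, at -1.28 between the agents (adjusted p = 0.0569), was called without BSA replicate 4 or IL-1β replicate 7 (adjusted p down to 0.0337). Of the 10 members lowered by IL-1β, 9 were lower still with palmitate than with IL-1β. Axin2 was the exception, with a log2 difference of 0.07 between the agents (95% interval -0.34 to 0.49).

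Palmitate + IL-1β lowered 20 of 30 members against BSA and raised Ror1, where 22.5% of all genes were lower, 24.8% higher and 47.3% called. Its libraries lay wholly below BSA in 20 members, against 19.3% of all genes, and wholly above in 1, against 22.2%. Wnt2, at -0.88 (95% interval -1.80 to 0.05), was called only without BSA replicate 1 (edgeR adjusted p = 0.0456). The median change was -0.57 on the log2 scale against 0.002 for all genes. Against palmitate alone, the combination was lower in 4 members, 13.3% of those tested, with 4.10% of all genes lower, 5.71% higher and 9.81% called. Its libraries lay wholly below those of palmitate in 7 members, or 23.3%, where 7.59% of all genes did so and 9.16% lay wholly above. The 4 were Wnt5a (log2 -0.16, edgeR adjusted p = 0.0136), Wnt9a (-0.49, adjusted p = 0.0015), Fzd2 and Fzd7 (-0.21, adjusted p = 0.0013). The Wnt5a call was lost without palmitate replicate 9 (adjusted p = 0.0716). The change of Dkk3, -0.12 at an adjusted p of 0.0636, passed with DESeq2, with upper-quartile scaling and with the compared libraries alone.

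Whether IL-1β altered the palmitate effect was read from separate libraries, palmitate against BSA and palmitate + IL-1β against IL-1β. In the presence of IL-1β, palmitate lowered 19 members and raised Ror1, where 16.1% of all genes were lower, 18.9% higher and 35.0% called, and these 19 had all fallen against BSA too. The libraries were apart and lower in 18 members, against 14.6% of all genes, and apart and higher in 2, Ror1 and Wnt10b, against 16.7%. Wnt2, Wnt5b and Axin2 passed only in the absence of IL-1β, although the difference itself was not significant for them (interaction log2 1.07, 0.45 and 0.23, adjusted p of 0.660, 0.660 and 0.866). The interaction test of edgeR called 0 of 30 members, against 1.99% of all genes, 1.83% with a lower and 0.159% with a higher value. At an unadjusted p under 0.05 it named 3, Fzd1, Fzd8 and Sfrp2, with a smallest adjusted p of 0.246. DESeq2 also called 0, with 9 members left without an adjusted p. Across the 30 members the effects without and with IL-1β had the same sign in 25, with a Pearson correlation of 0.844 as a description over genes that share libraries, and 23 differed by less than 0.3 on the log2 scale. For abundant genes the interval of the interaction was narrow, -0.14 to 0.11 for Wnt5a and -0.13 to 0.13 for Fzd7, while it was -2.09 to 0.00 for Sfrp2.

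**Figure D4:**
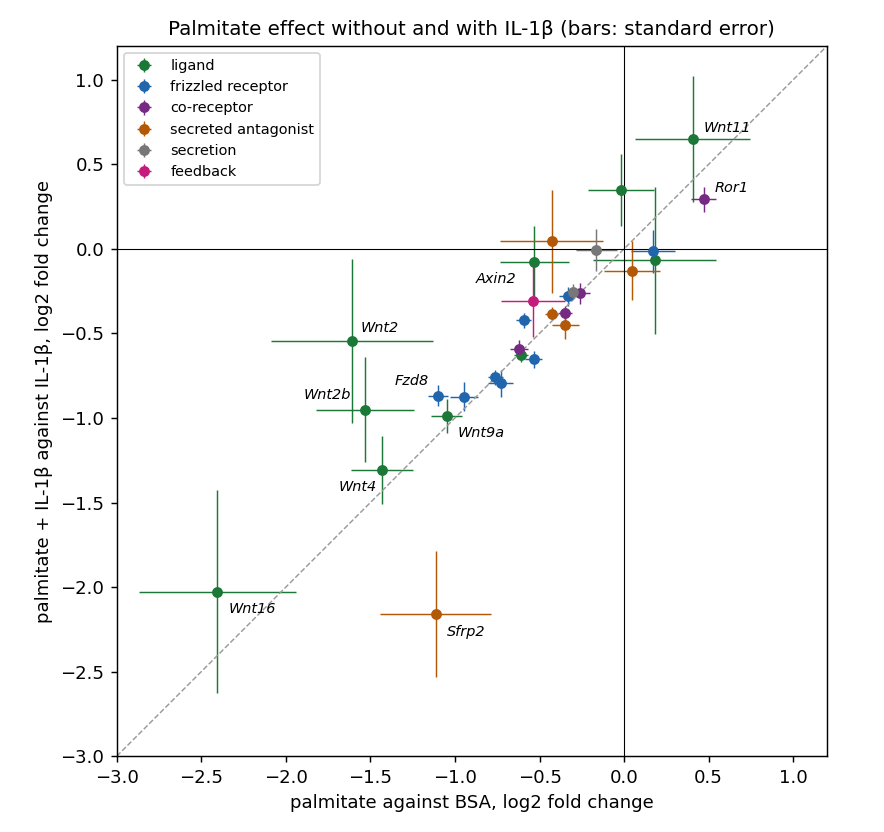
Log2 change of each tested member with palmitate, without IL-1β (x axis) and with IL-1β (y axis). Bars are standard errors and the dashed line marks equal effects. Most members lie near the line, and Sfrp2, at -1.11 and -2.16, and Wnt2, at -1.61 and -0.54, lie far from it with wide errors.

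The rest of the pathway did not move in 1 direction. Of other surface and secreted modulators, 23 of 30 were tested, and palmitate raised 2, lowered 7 and left 14 uncalled, or 8.70% higher and 30.4% lower, where 19.8% of all genes were higher and 17.5% lower. The largest rises were those of Trabd2b, a protease that cuts Wnt ligands, at log2 1.38 (edgeR adjusted p = 1.01e-10) and of Rspo2, a secreted amplifier of Wnt signals, at 0.34. The largest falls were those of Lgr5 and Lgr4, both R-spondin receptors. Lgr4 went from 58.3 ± 1.63 to 28.7 ± 0.494 CPM (log2 -1.03, adjusted p = 3.77e-15). Lgr5 went from 0.501 ± 0.0389 to 0.0501 ± 0.0224 CPM, near the floor of 3 counts. Its mean reached the filter's level of 0.358 CPM in BSA and with IL-1β alone (0.474 CPM). With both agents it was 0.0593 CPM. The pass of Lgr5 thus came through the treatments in which it was higher, and its call is no support for a fall. The third R-spondin receptor, Lgr6, had a log2 change of -0.29 (adjusted p = 0.431).

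Of the 34 genes of the intracellular relay, 7 rose and 11 fell with palmitate, or 20.6% and 32.4%. The share of rises was near the 19.8% of all genes, and that of falls was above their 17.5%. Among the transcription factors that work with β-catenin, Lef1 rose by 1.10 on the log2 scale (edgeR adjusted p = 1.45e-09), while Tcf7l2 fell by 0.73 (adjusted p = 3.25e-09) and Tcf7l1 by 0.72 (adjusted p = 5.72e-09). Apc, a scaffold of the destruction complex, rose by 0.30.

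The β-catenin target genes, 17 of 21 tested, were split, with 6 higher, 6 lower and a median of -0.01. Each direction made up 35.3% of those tested, against 19.8% of all genes higher and 17.5% lower. Fosl1, a subunit of the AP-1 factor, rose by 1.88 and the hyaluronan receptor Cd44 by 1.67, and the growth factor Fgf18 fell by 2.54, along with Lgr5. The limit given above for the call of Lgr5 holds here too. The cell cycle gene Ccnd1 was higher with palmitate (log2 0.14, edgeR adjusted p = 0.0101) and lower with IL-1β (-0.12, adjusted p = 0.0448). Many of these targets answer to other pathways as well.

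In the planar polarity and calcium branch, 27 of 28 were tested, with 6 higher and 9 lower, or 22.2% and 33.3%. Here too the share of rises was near the 19.8% of all genes, and that of falls was above their 17.5%. The formin Daam1, which links Wnt receptors to actin, rose by 1.06 (edgeR adjusted p = 7.04e-18), and its relative Daam2 fell by 1.31 (adjusted p = 1.32e-17). Of the polarity cadherins, Celsr3 rose by 0.77 and Celsr2 fell by 0.75. Nfatc1, a calcium-dependent transcription factor, was lower with palmitate (-0.35) and higher with IL-1β (0.23). Lgr5, Lef1 and a few others stand in more than 1 of these lists.

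**Figure D5:**
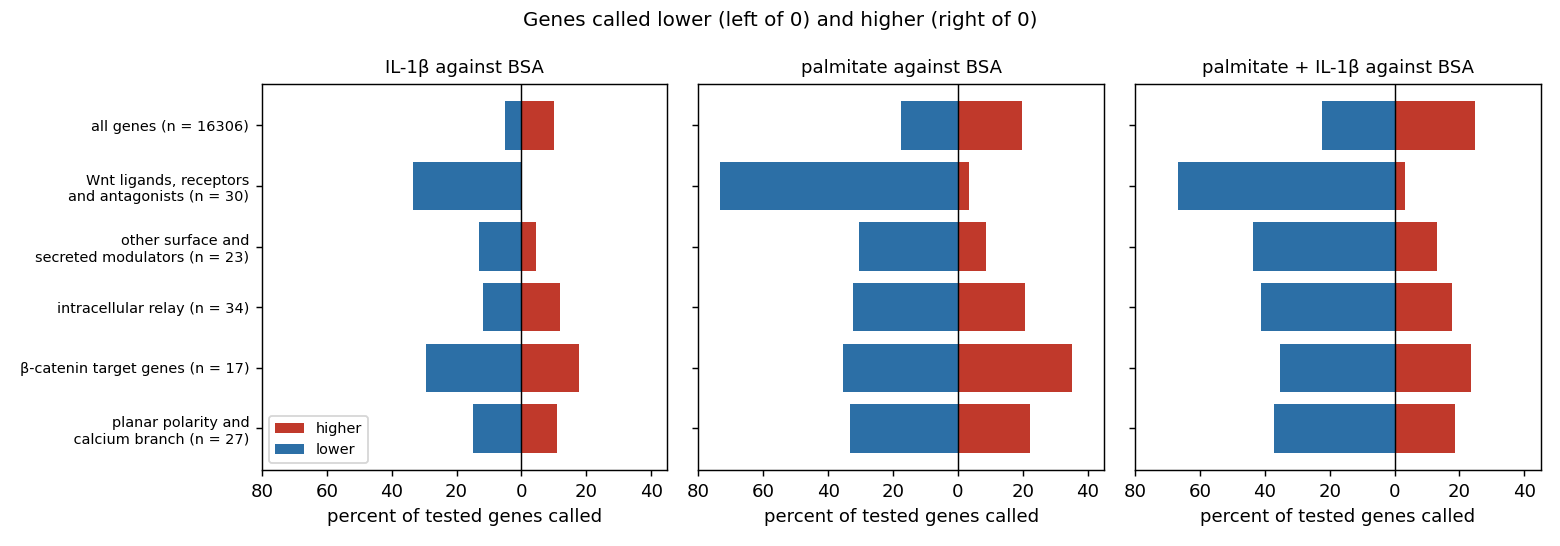
Percent of tested genes called lower (left of 0) and higher (right of 0) against BSA for each treatment, for all 16306 genes, the 30 tested members and the 4 other pathway lists. Under palmitate 73.3% of the members were lower, against 17.5% of all genes.

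The identity of the cells was checked with fixed marker genes. All 10 fibroblast markers were tested, with summed levels of 46570 to 48200 CPM in BSA, 47820 to 48540 with IL-1β, 41960 to 44910 with palmitate and 41250 to 43210 with both agents. Of the 8 epithelial markers 2 were tested, and their sum was 4.01 to 4.82 CPM in BSA, 3.70 to 5.12 with IL-1β, 2.48 to 2.96 with palmitate and 2.01 to 2.62 with both agents. It came mostly from the desmosome gene Dsp, while the keratins Krt5, Krt14 and Krt8 had at most 5 counts in any library. The smooth muscle and pericyte sum was 126 to 134 CPM in BSA, 106 to 125 with IL-1β, 119.6 to 124 with palmitate and 102 to 114 with both agents, so each treatment lay below BSA. The Schwann sum was 2.69 to 2.90 CPM in BSA, 2.81 to 3.39 with IL-1β, 1.94 to 2.45 with palmitate and 2.14 to 2.92 with both agents. These 4 sums were lower with palmitate than with BSA in every library, and their part in the results was not tested. The markers within a list did not all move together, and the growth factor receptor Pdgfra of the fibroblast list went from 213 ± 7.50 CPM in BSA to 309.7 ± 9.88 in palmitate (SD, n = 4). RNA of leukocyte and endothelial markers was present at a low level. The leukocyte sum was 2.59 to 4.35 CPM in BSA and 2.58 to 3.53 in palmitate, mainly from Csf1r, Cd68 and Lyz2, with Tyrobp at 0 in all libraries. The endothelial sum was 1.78 to 2.29 CPM in BSA and 1.43 to 1.95 in palmitate, mainly from Cdh5, Tek and Pecam1, with Cldn5 at 0. The osteoblast sum was 2.75 to 3.32 CPM in BSA and 2.83 to 3.16 in palmitate, and these 3 pairs of ranges overlapped.

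Promoters were read from RefSeq windows on GRCm38.p6, each from 250 bases before to 50 after a transcript start, and 30 of the 45 members had such a window. The motif of the TCF/LEF factors, CTTTGAA or CTTTGAT on either strand, was in the windows of 3 of the 30 members, Wnt5b, Wnt11 and Dkk1, in 8.65% of all 32851 windows and in at least 1 window of 9.88% of all 27025 genes. An NF-kB motif, GGG and 2 bases of any kind followed by TTTCC or TTCCC on either strand, was in none of the 30 members in 3.24% of all windows and in 3.73% of all genes. Of the 22 members lowered by palmitate, 14 had a window and Wnt5b was the sole holder of a TCF/LEF match. The 100 bases before the start are printed for Wnt5b (chr6:119449387-119449486, minus strand), for Wnt11 (chr7:98835012-98835111, plus strand), which was not called, and for Axin2 (chr11:108920249-108920348, plus strand), the β-catenin readout, which held no match there. They run 5′ to 3′ along the gene, with the motif in capitals. In Wnt5b it begins 71 bases before the start, and in Wnt11 it begins 51 bases before the start and reads as the reverse complement.
Wnt5b: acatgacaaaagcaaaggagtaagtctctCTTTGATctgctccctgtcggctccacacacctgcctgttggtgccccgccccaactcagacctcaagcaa
Wnt11: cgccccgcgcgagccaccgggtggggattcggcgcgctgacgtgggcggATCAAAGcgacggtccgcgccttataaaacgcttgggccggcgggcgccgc
Axin2: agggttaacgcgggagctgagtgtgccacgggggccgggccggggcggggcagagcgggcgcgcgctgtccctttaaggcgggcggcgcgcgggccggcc
A match is a description of these letters in this window, and a window without a match says nothing of more distant sites. Wnt5b has 3 windows and Wnt11 has 2, and the match was in 1 of them in each gene.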

How the data were processed

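Bulk RNA from 16 libraries of mGF was analysed. The deposited values are raw counts that the authors obtained with Trimmomatic 0.39 (trimming), STAR 2.7.10a (alignment to GRCm39) and HTSeq 2.0.9 (counting over GENCODE vM33). The kit is given as stranded total RNA in the labels and as oligo(dT)-primed full-length cDNA in the study's methods. The strand setting of the counting is not given in the sources used here, so reads of opposite-strand overlaps cannot be told apart. Summary entries that name no gene (median 19.0% of each library) were left out.

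Groups follow the sample titles. Counts were filtered with filterByExpr (minimum count 10, minimum total 15), scaled by TMM (factors 0.970 to 1.04) and tested with glmQLFit (robust) and glmQLFTest in edgeR 4.0.16 (R 4.3.3), 1 mean per treatment, without covariates, and with the Benjamini-Hochberg adjustment over 16306 genes. The intervals cover 95%. The biological coefficient of variation was 6.08%. Replicates differed by more than sampling noise, so none was merged. CPM on TMM-scaled sizes describe levels. Positions, exon lengths and overlaps come from GENCODE vM39, where 56323 of 56941 identifiers matched. The alternatives were DESeq2 1.42.0, other scalings (RLE, upper quartile), other filters, fits of the compared libraries alone and leaving out each library.

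The members and gene lists were chosen with earlier results of these data known. Every tested member is named, with values per library for those called with a log2 change over 1 in size and for Axin2. The 2 largest palmitate rises and falls of each pathway list are named, with genes called in opposite directions by the single agents. Wnt6 and the per-library ranges of other members were added after their values were seen. On simulated data with 16018 genes tested, edgeR called 44 of 65 genes changed by 0.5 on the log2 scale with the right sign. It called 59 of 67 changed by 1 and 63 of 64 changed by 2, with 4 false calls. No other tested gene was changed, and the changes were in the palmitate group alone. In the real data 37.3% of all genes were called under palmitate, so these rates may not hold there.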

Additional observations from a re-analysis of the deposited data

Results flagged for a closer look

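A library stood far from the other 3 of its treatment in 9 of 120 groups of 4 tested, where chance gives about 1 in 20, or 6. Axin2 was at 2.29 CPM in BSA replicate 3 (others 2.83 to 2.94) and at 2.43 CPM in palmitate replicate 9 (others 1.69 to 1.81). Fzd6 was at 20.5 CPM in BSA replicate 3 (others 18 to 18.2) and at 8.06 CPM in palmitate replicate 9 (others 9.99 to 10.3). Ror2 was at 26.3 CPM in palmitate replicate 9 (others 23.0 to 23.2). Lrp5 was at 62.4 CPM (others 66.6 to 67.0) and Wnt5b at 1.66 CPM (others 1.13 to 1.19) in replicate 16 of palmitate + IL-1β. Wnt10a was at 0.872 CPM in BSA replicate 2 (others 0.237 to 0.305) and at 0.588 CPM in palmitate replicate 11 (others 0.437 to 0.463).

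Among the pathway genes named above, the effect of palmitate differed without and with IL-1β by the interaction test of edgeR in 3. For Fosl1 the log2 change was 1.88 without and 1.09 with IL-1β (interaction -0.79, adjusted p = 0.0183). For Cd44 it was 1.67 and 1.33 (interaction -0.34, adjusted p = 0.000345). For Nfatc1 it was -0.35 and -0.74 (interaction -0.39, adjusted p = 0.00255).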

How the results depend on the processing

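Across the 98 changes of members called over the 6 comparisons of treatments, 2153 values under alternatives were computed. Of these, 2098 kept call and direction, 55 kept the direction and lost the call, and 0 reversed, and 84 of the 98 changes kept their call in every alternative. Leaving out each library in turn gave 6 to 10 members for IL-1β against BSA, with 6 without IL-1β replicate 6, and 20 to 24 for palmitate against BSA. With the other alternatives these counts were 9 to 11 and 22 to 24. Upper-quartile scaling moved the median of all genes under palmitate from -0.003 to -0.07 on the log2 scale. It also moved the share of higher genes among those called from 53.1% to 37.1% for palmitate, from 67.1% to 43.5% for IL-1β and from 52.4% to 38.7% for both agents against BSA, while the members split 1 higher and 22 lower, 10 lower, and 1 higher and 20 lower as before. No paired analysis was possible because the replicate numbers in the labels are not shared between treatments. Depth limits the members under about 1 CPM, Wnt2, Wnt16, Wnt10a, Wnt11, Sfrp2 and Sfrp4, whose intervals are wide, and the 14 members with few counts or none.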
